A study of Macaca mulatta with 4 samples.

Results

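Chromosome 19 of the rhesus macaque (Macaca mulatta) is described here through its DNase I hotspots in 4 libraries of morulae. Its members are all hotspots that the deposited lists place on that chromosome: 3086 in AG replicate 1, 3666 in AG replicate 2, 3352 in GG replicate 1 and 2771 in GG replicate 2. Merged over the lists, they formed 6907 regions, of 222970 in the whole genome. A hotspot is itself a measured call, and the chromosome was chosen by its known density of hotspots and its known share in AG embryos, so levels of both kinds are given as a description without a test.

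The morula is the compact ball of cells before the blastocyst. Androgenetic (AG) embryos hold nuclear genomes from sperm alone, and gynogenetic (GG) embryos hold genomes from the oocyte alone, so AG against GG sets paternal against maternal chromosomes. Each group had 2 libraries, all digested with DNase I at 40 U/ml for 5 min at 37 °C. The labels name the genotype (AG or GG) and the stage, and no strain, donor, embryo number or batch. Nothing in them says that replicates came from separate embryos, so the p-values below measure only the spread between these libraries, which may be technical.

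As background, macaque chromosome 19 is the counterpart of human chromosome 19, a small chromosome known for many genes packed closely together and for long clusters of zinc finger genes. Many of those genes encode repressors that recruit silencing factors to repeats and to other genes, which is of weight in early embryos. DNase I cuts chromatin where it is open, mainly at promoters and enhancers, and a hotspot is a stretch with more cuts than its surroundings. Positions below are on the rheMac8 build, counted from 1. No genome or annotation of that build was used here, so neither bases nor genes are given for the regions.

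The lists give a position and a score per hotspot and no reads, so depth is unknown. Where 4 values follow each other below, they run from the first and second AG library to the first and second GG library. The lists held 64730 to 93171 hotspots in all, which covered 67.8 and 84.3 Mb in AG replicates 1 and 2 and 102 and 93.2 Mb in GG replicates 1 and 2. Only hotspots at a false discovery rate of 0.01 are listed. The weakest on chromosome 19 scored 4.33, 4.14, 4.07 and 4.16. Each score is as the authors gave it and serves here only for ranks inside 1 list.

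The first question was how densely the chromosome was occupied. Per Mb it held 57.5 hotspots in AG replicate 1, 68.3 in AG replicate 2, 62.5 in GG replicate 1 and 51.6 in GG replicate 2. The other autosomes together held 23.5, 31.1, 34.2 and 31.3 per Mb in the same order. Chromosome 19 ranked 1 of 20 autosomes in every library, by hotspots per Mb and by the part of its length covered. Chromosome 16 came next in each list, with 40.7, 50.2, 51.8 and 41.0 hotspots per Mb. Neighbouring hotspots on chromosome 19 lay a median of 9022, 8008, 7236 and 8524.5 bp apart in the 4 libraries, against 18176, 15543.5, 12843 and 13996 bp on the other autosomes.

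The density per Mb of the chromosome itself did not separate AG from GG. Hotspots covered 3.76 and 4.31 Mb of it in the AG libraries and 3.92 and 3.22 Mb in the GG libraries, or 7.01% and 8.04% of its length against 7.30% and 6.003%. The groups thus overlapped, with means of 4.04 ± 0.391 Mb in AG and 3.57 ± 0.491 Mb in GG (SD, n = 2 libraries each). On the other autosomes the groups did not overlap: hotspots covered 2.44% and 3.05% of their length in AG and 3.75% and 3.43% in GG. By number of hotspots per Mb, chromosome 19 was 2.45 and 2.19 times as dense in AG and 1.82 and 1.65 times as dense in GG as the other autosomes.

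Its share of a library moved accordingly. It took 5.54% and 5.12% of the covered bp in AG replicates 1 and 2, and 3.84% and 3.46% in GG replicates 1 and 2. By number of hotspots the shares were 4.77% and 4.30% against 3.598% and 3.27%, a smaller gap. The rest of the gap lay in width. A hotspot on chromosome 19 was on average 1.16 and 1.19 times as wide as the average hotspot of its AG list, and 1.07 and 1.06 times as wide in the GG lists. The AG to GG ratio of the shares, 1.46, ranked 1 of 20 autosomes, ahead of chromosome 20 at 1.43 and chromosome 10 at 1.26. With 2 libraries against 2, an exact two-sided permutation test cannot go below p = 0.333, so the sizes above rest on these 4 values alone.

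**Figure D1:**
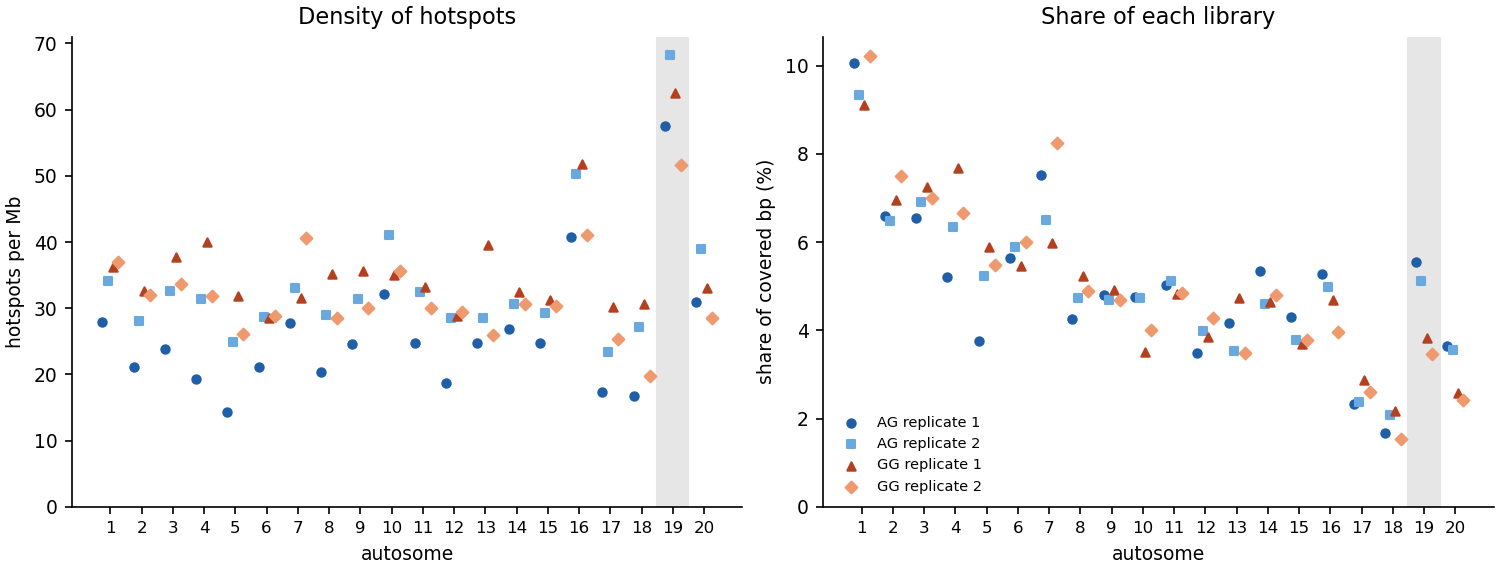
Hotspots per Mb (left) and share of a library's covered bp in percent (right) for each of 20 autosomes, with 1 point per library and chromosome 19 shaded. On the left its AG and GG points overlap (57.5 and 68.3 against 62.5 and 51.6), each above the other autosomes of the same library, and on the right both AG points (5.54% and 5.12%) lie above both GG points (3.84% and 3.46%).

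Hotspots on chromosome 19 were wider than elsewhere in all 4 libraries. Their median width was 1048 bp and 1029 bp in the AG libraries and 970 bp and 963 bp in the GG libraries. On the other autosomes it was 898, 885, 902 and 918 bp. By the median, the AG libraries were thus wider than the GG libraries on chromosome 19, by 72.2 bp in the mean of the medians. Elsewhere the order of the groups was the opposite. Upper quartiles on chromosome 19 overlapped between the groups, at 1353 and 1280 bp in AG and 1341 and 1389 bp in GG. Hotspots over 2000 bp made up 13.3%, 12.1%, 12.8% and 12.1% of the chromosome's list, against 8.70%, 6.45%, 11.02% and 10.6% elsewhere. The widest single hotspots were 7287, 7499, 7828 and 7821 bp long.

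They also ranked high within their lists. The median hotspot of the chromosome stood at score percentile 64.5, 64.1, 66.6 and 67.7 of its list, where the other autosomes stood at 49.3 to 49.4. Of its hotspots, 17.3% and 19.1% in AG and 21.3% and 23.5% in GG belonged to the top decile of the list. This order was the reverse of that of the shares: the GG lists held less of their cover on chromosome 19, but a larger part of their hotspots there ranked high. The chromosome supplied 51 of the 647 hotspots in the top 1% of AG replicate 1 (7.88%) and 69 of 853 in AG replicate 2 (8.09%). It supplied 121 of 932 in GG replicate 1 (13.0%) and 96 of 849 in GG replicate 2 (11.3%). Ranks from lists of different lengths are not on 1 scale, so no change of the score itself is read from them.

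Along the chromosome, hotspots formed a left and a right block around a sparse stretch. In 54 windows of 1 Mb the mean cover over the libraries ran from 3.05 to 125 kb, with a median of 71.0 kb, against a median of 26.6 kb over 2629 windows of the other autosomes. Only 145 of those (5.52%) reached the median of chromosome 19. The 5 densest windows held 15.1%, 13.7%, 15.7% and 15.8% of the chromosome's cover. All 4 libraries followed much the same profile, with a Pearson r of window cover of 0.942 within AG, 0.960 within GG and 0.892 to 0.920 between an AG and a GG library. These coefficients describe 54 windows that share the build and its mappable sequence, and carry no test.

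The densest window was chr19:40000001-41000000, ranked 2 among all windows of the genome. Hotspots covered 116 and 124 kb of it in AG replicates 1 and 2 and 146 and 115 kb in GG replicates 1 and 2, so the groups overlapped. Next were chr19:50000001-51000000, with 115, 124, 131 and 109 kb, and chr19:44000001-45000000, with 126, 119, 122 and 102 kb. They ranked 3 and 4 in the genome. The windows at 17000001 (112, 113, 97.0 and 95.9 kb) and 31000001 (96.7, 113, 120 and 86.4 kb) ranked 12 and 15. Of these 5 windows, that at 17000001 alone had both AG libraries above both GG libraries in unscaled cover.

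The sparse stretch lay between 23 and 28 Mb. No window of 1 Mb was empty in any library, but 4 had a mean under 10 kb, those starting at 23000001, 24000001, 26000001 and 27000001. Between them, chr19:25000001-26000000 was covered over 46.1, 65.9, 61.7 and 44.6 kb, an island of ordinary density. The widest gap without a hotspot in any list was chr19:22915762-23197903, 282 kb long. A second of 243 kb, chr19:23198495-23441557, followed directly after a single region. Of the 8 widest gaps, 7 lay in or just before the sparse stretch.

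AG replicate 2 stood apart in these 4 windows. It covered 8.63, 15.4, 23.8 and 21.7 kb of them, while the other 3 libraries covered 0.610 to 8.90 kb. As a share of the chromosome's own cover this was 1.61%, against 0.407% in AG replicate 1, 0.582% in GG replicate 1 and 0.387% in GG replicate 2. AG replicate 2 also had the most hotspots of the chromosome, 3666, and the part of depth in this was not tested.

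**Figure D2:**
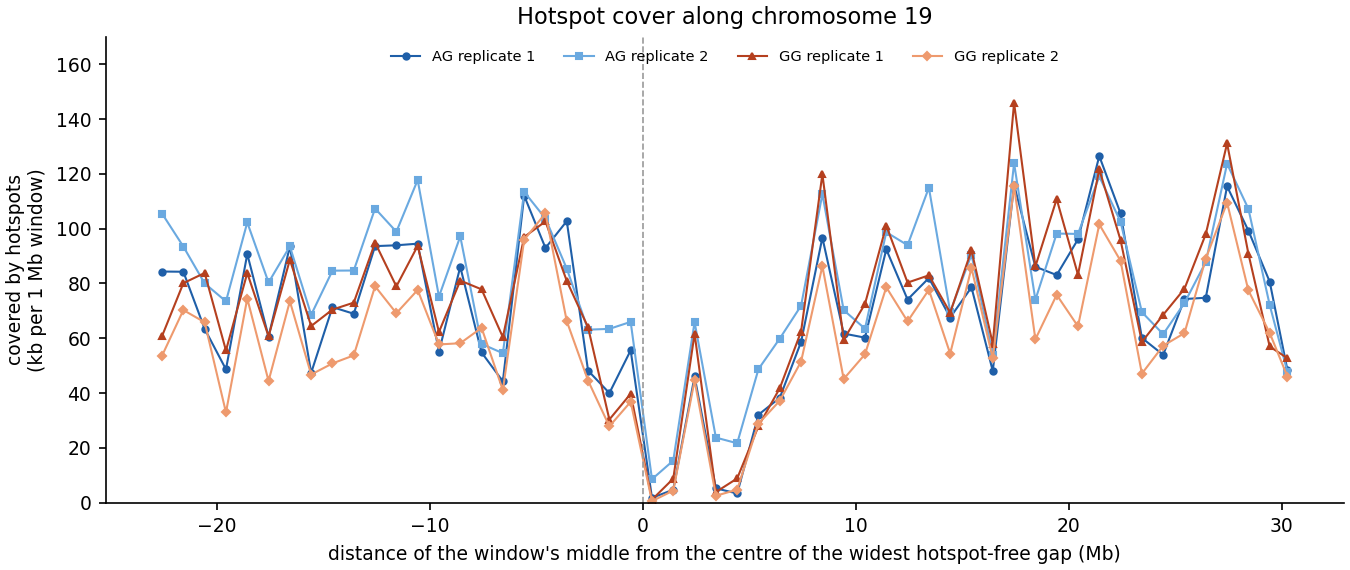
Hotspot cover in kb per window of 1 Mb in the 4 libraries, against the distance in Mb of the window's middle from the centre of the widest hotspot-free gap (dashed line). The lines run closely together from 3.05 kb to 125 kb in the mean, and AG replicate 2 stands above the others in the 4 sparse windows right of the gap.

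Of the 5 strongest regions common to all libraries, 3 lay in the last Mb before the widest gap. Among the 1004 regions called in all 4 libraries, chr19:22148724-22153545 had the highest lowest score percentile. Its scores were 78.5, 100.5, 87.1 and 63.7, and it was the top hotspot of the chromosome in 3 of the 4 lists. The second and the third, chr19:22909562-22914114 and chr19:22915002-22915761, ended within 2 kb of the widest gap or at its very edge. They scored 59.98, 86.7, 48.8 and 35.3, and 61.3, 114, 55.8 and 27.7. Of the 760 bp of the third, 716 and 760 bp were hotspot in the AG libraries and 200 and 280 bp in the GG libraries. The 4th, chr19:39625015-39626563, scored 24.6, 53.7, 34.1 and 29.7, and the 5th, chr19:6621762-6624345, scored 18.7, 23.3, 30.2 and 24.0. The lowest score percentile of the 5 in any list was 99.4.

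The widest regions called in all libraries were not the strongest. The widest, chr19:49135047-49145801, spanned 10755 bp, of which 7262, 8876, 7419 and 7623 bp were hotspot. It stood at score percentiles of 83.0, 96.1, 99.4 and 97.5. Next were chr19:43229258-43238812 of 9555 bp and chr19:25559482-25568910 of 9429 bp, the latter inside the island of the sparse stretch and at percentiles of 92.4 to 98.5.

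Regions of chromosome 19 were found again in other libraries more often than regions elsewhere. Of its 6907 regions, 4166 (60.3%) came from 1 library. A further 1120 (16.2%) were common to 2 libraries, 617 (8.93%) to 3 and 1004 (14.5%) to all 4. On the other autosomes 75.4% were called in 1 library and 5.63% in all 4. Regions called in all 4 libraries occurred 18.7 times per Mb on chromosome 19 and 4.64 times per Mb on the other autosomes, and the chromosome ranked 1 of 20 in this and last in the share of regions from a single library. They made up 32.2% of the merged length of the chromosome, against 16.997% elsewhere. Their median width was 2498 bp, narrower than the 2968 bp of such regions on other autosomes, whereas single-library regions were of like width (763 and 756 bp). A denser list meets another by overlap more often, and how much of the sharing follows from density was not tested.

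**Figure D3:**
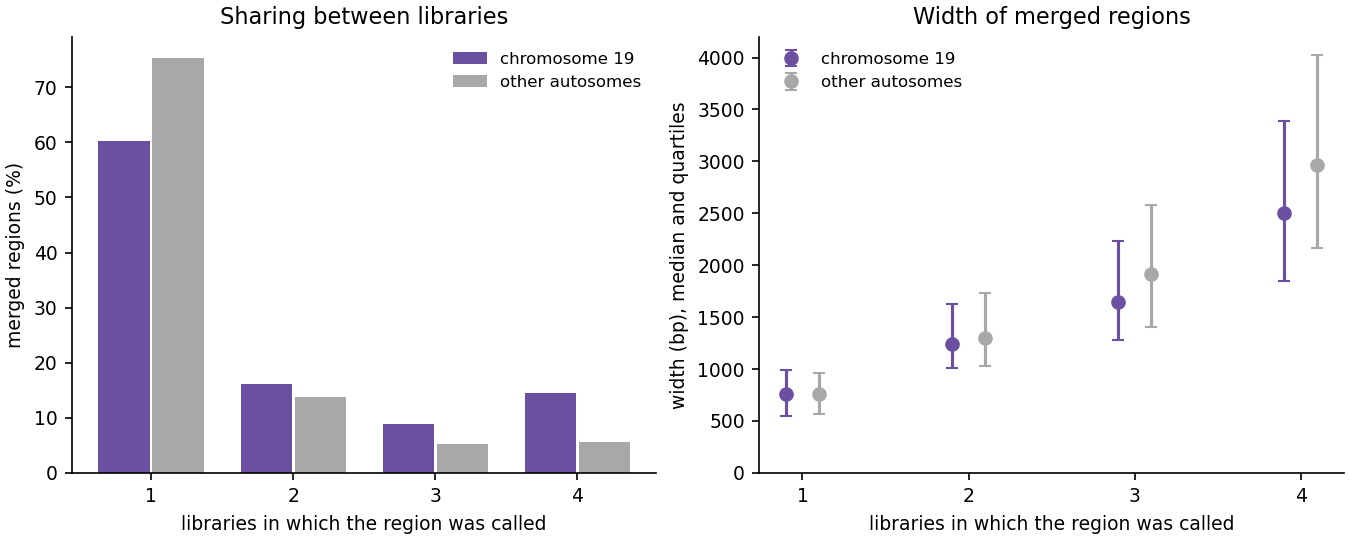
Left, percent of merged regions by the number of libraries in which they were called, on chromosome 19 and on the other autosomes. Right, median width in bp with quartiles. The all-library class reaches 14.5% on chromosome 19 and 5.63% elsewhere, with a median width of 2498 bp against 2968 bp.

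By pairs of libraries, the GG lists were the most alike on chromosome 19. The Jaccard index, shared over total covered bp, was 0.378 for the GG pair and 0.286 for the AG pair, which was above 2 of the 4 mixed pairs and below the other two (0.256 to 0.296). On the other autosomes the GG pair reached 0.243, the AG pair 0.162 and the mixed pairs 0.139 to 0.168. On chromosome 19, 63.9% of the GG replicate 2 hotspots overlapped one of GG replicate 1, and 54.0% of the AG replicate 1 hotspots overlapped one of AG replicate 2. The same AG replicate 1 hotspots met one of GG replicate 1 in 51.3% and one of GG replicate 2 in 46.4%. Of the AG replicate 2 hotspots, 44.5% met one of AG replicate 1, against 43.2% and 38.2% for the GG libraries. The longer list of a pair is met more often, and its part in these shares was not tested.

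Recovery in the other library of the group rose with the score. In AG replicate 1, 16.2% of the chromosome's hotspots in the lowest score decile of the list and 91.0% in the highest met a hotspot of AG replicate 2. For AG replicate 2 these shares were 18.3% and 86.3%. GG replicate 1 gave 18.3% and 94.2%, and GG replicate 2 gave 34.2% and 96.0%. At the top decile the other autosomes gave 80.7%, 73.7%, 87.7% and 89.5%. Recovery in the other group at the top decile was 78.9% to 90.5% over the 8 directions, so the strongest hotspots of the chromosome were largely common to AG and GG. Recovery in the other group was not measured on the other autosomes, so nothing particular to chromosome 19 is read from it.

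**Figure D4:**
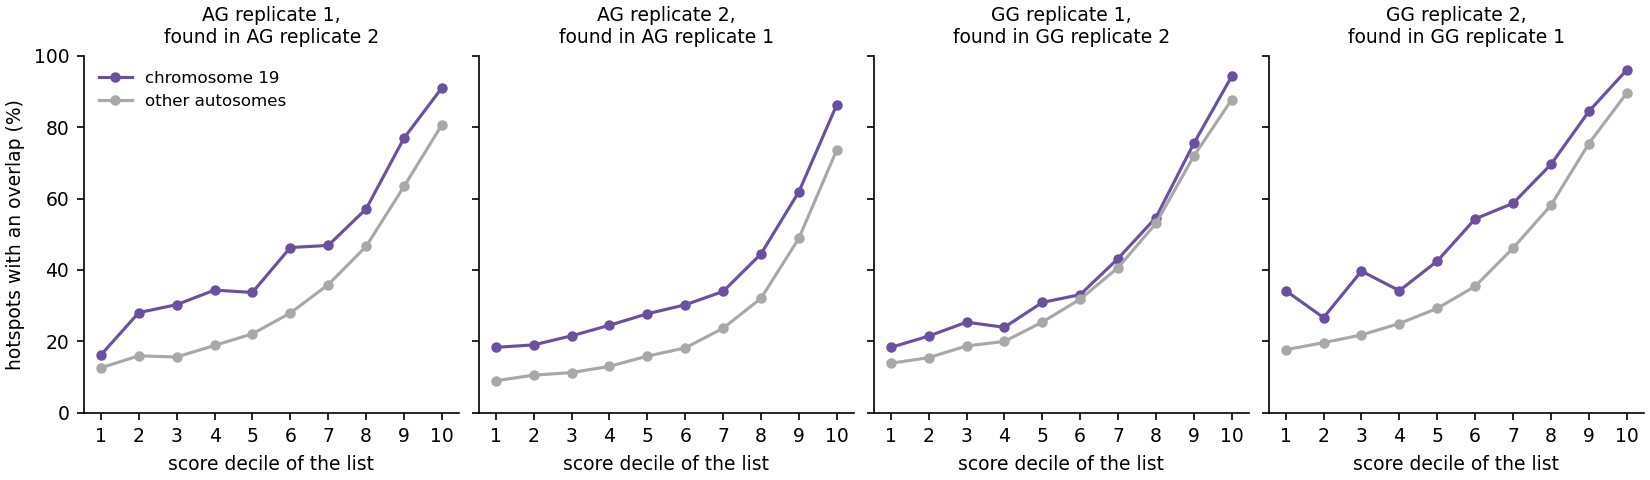
Percent of hotspots that overlap a hotspot of the other library of the same group, by score decile of the list (1 lowest, 10 highest), on chromosome 19 and on the other autosomes. Chromosome 19 lies above the other autosomes in all 4 panels and reaches 86.3% to 96.0% in the top decile.

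Regions of 1 group only were balanced on chromosome 19. Both AG libraries and neither GG library called 308 regions (4.46%), and both GG and neither AG library called 303 (4.39%). In the whole genome 2.12% of regions were AG-only and 5.48% GG-only. The ratio of AG-only to GG-only regions, 1.02, ranked 1 of 20 autosomes, followed by chromosome 20 at 0.779. Calls of this kind depend on list length. With every list shortened to equal covered length, the chromosome had 350 AG-only and 158 GG-only regions. Without AG replicate 1 or 2, where 1 library is enough, AG-only regions numbered 1878 and 1282, and without GG replicate 1 or 2 GG-only regions numbered 1014 and 1378. Leaving out a library of the opposite group gave 492 AG-only regions without GG replicate 1, and 492 and 485 GG-only regions without AG replicates 1 and 2. Shares over the other autosomes were not taken with shortened lists or with a library left out. No surplus of the chromosome is therefore read from these counts.

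Both classes were spread along the chromosome. AG-only regions had a median width of 1408 bp and GG-only regions of 1176 bp. Their median score percentile in the weaker library was 48.1 and 43.0, against 37.9 and 40.8 for such regions of the other autosomes. Hotspots of chromosome 19 in general ranked higher in their lists than those elsewhere, and the part of this was not tested. The median distance to a region called in all 4 libraries was 13.2 kb for AG-only and 10.7 kb for GG-only regions, and 21.4% and 35.0% of them lay within 5 kb of one. On the other autosomes these distances were 44.2 and 61.2 kb, with 12.3% and 12.5% within 5 kb. Regions called in all libraries were also denser on chromosome 19 (18.7 against 4.64 per Mb), which shortens such distances, and its part was not tested. By window, AG-only regions were most frequent in chr19:11000001-12000000, with 13 against 8 GG-only regions, and GG-only regions in the densest window, chr19:40000001-41000000, with 13 against 5. The sparse windows held 1 AG-only and 1 GG-only region, both at 27000001.

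The AG-only region that ranked first was chr19:40861015-40863159, in that same densest window, which scored 30.3 in the first AG library and 246 in AG replicate 2, where it was the top hotspot of the chromosome. It was followed by chr19:36728543-36729486 (29.5 and 23.9), chr19:52399221-52403576 (21.4 and 18.9), chr19:50053919-50061271 (13.6 and 14.1) and chr19:42733015-42734410 (15.3 and 12.4). The region at 50053919 was 7353 bp wide, of which 4803 and 7035 bp were hotspot, and was the widest on the chromosome among regions called in exactly 2 libraries. All of these lay right of the sparse stretch.

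The GG-only region that ranked first was chr19:41158096-41158346, with scores of 45.9 and 53.3 in GG replicates 1 and 2. Of its 251 bp, GG replicate 2 called 44 bp. Next came chr19:15979418-15980402 (19.1 and 17.8), chr19:32720216-32722021 (13.3 and 15.2), chr19:50552207-50554304 (13.2 and 12.3) and chr19:46490394-46492859 (12.4 and 20.4). An absent call means that no hotspot passed the threshold of that list, and not that DNase I did not cut there.

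Windows of 1 Mb were then compared between AG and GG with limma, fitted over all 2682 windows of the genome with a mean cover of at least 2000 bp. The response was the log2 of the hotspot cover with 1000 bp added, divided by the library's mean over windows, so a fold change is on that scale and understates sparse windows. All 54 windows of chromosome 19 entered the fit. Their scaled cover is the chromosome's share split by position, the value it was chosen on, so what follows describes where the surplus lay and supports nothing further. Every one had a log2 difference (AG minus GG) above 0, from 0.04 to 1.93 with a median of 0.56, or 1.48-fold. Of all 2682 windows, 1261 were above 0, and the median over all windows was -0.04. Both AG libraries lay above both GG libraries in 51 of 54 windows, against a background of 24.1% of all windows, and the reverse held in 0 of 54, against 28.9%.

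For the same reason limma's calls are given only as counts. At an adjusted p of 0.05 they came to 0 of 54, as to 0 of all 2682 (0%), and at an unadjusted p of 0.05 to 22 of 54, where all windows gave 18.0%. With a variance trend in the fit, limma called 26 of 54 windows at an adjusted p of 0.05, all higher in AG, against 8.13% of all windows, and with an offset of 10000 bp it called 4, against 5.07% of all windows. The number of calls thus changed with the settings, and no single window is called here.

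Where 0 lay depended on the scale. Scaling to the library adds the same amount to every window's difference. The distance between chromosome 19 and the other windows therefore stays the same. Without such scaling, an alternative chosen after seeing the data, 41 of 54 windows were above 0, against 569 of all 2682. The median log2 difference was then 0.21, and the median over all windows was -0.40. Both AG libraries then lay above both GG libraries in 21 windows (background 6.64%) and below them in 2 (background 50.9%), chr19:15000001-16000000 and chr19:49000001-50000000. With each library also centred within its chromosomes, which removes any shift common to the chromosome, the median was -0.03. AG was then above GG in 9 windows (background 28.3%) and below in 19 (background 22.5%). With median scaling, which moved the median of all windows to 0.08, the median on chromosome 19 was 0.69. AG was then above GG in 51 windows (background 31.1%). With lists shortened to equal covered length, both AG libraries lay above both GG libraries in 67.9% of the chromosome's windows. The share over all windows was not taken there. Centring sets the chromosome's mean difference to 0 by construction, so its counts show only how windows stood against each other.

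**Figure D5:**
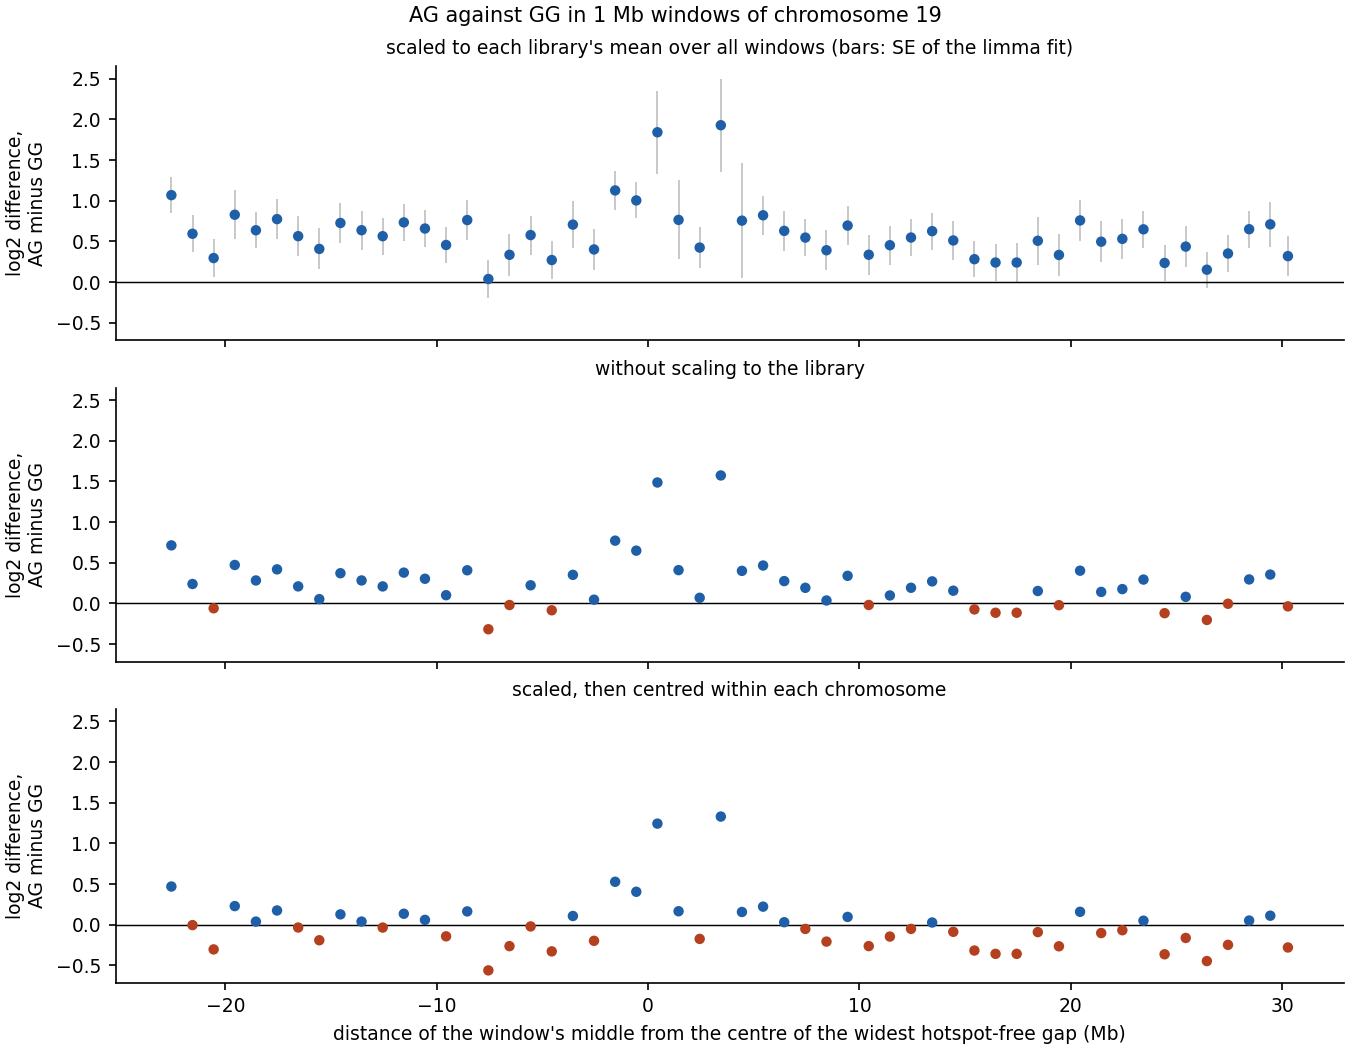
Log2 difference in hotspot cover, AG minus GG, for the 54 windows of 1 Mb on chromosome 19, by distance in Mb from the centre of the widest hotspot-free gap. All points lie above 0 when scaled to the library (top, with the SE of the limma fit), 41 of 54 without scaling (middle), and they scatter around a median of -0.03 after centring within chromosomes (bottom). Of all 2682 windows of the genome, 1261 are above 0 when scaled and 569 without scaling.

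The windows that limma ranked first lay at the left end and at the edges of the sparse stretch. Hotspots covered 84.4 and 106 kb of the first window, chr19:1-1000000, in AG replicates 1 and 2, and 60.8 and 53.7 kb in GG replicates 1 and 2. The groups did not overlap, and the scaled log2 difference was 1.07 (SE 0.22). The window chr19:21000001-22000000 had 40.0 and 63.5 kb against 30.4 and 27.9 kb (log2 1.13, SE 0.24), and chr19:22000001-23000000 had 55.6 and 66.0 kb against 39.8 and 36.8 kb (log2 1.00, SE 0.22). These 3 windows were higher in both AG libraries also without scaling and after centring.

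In the sparse window chr19:23000001-24000000, cover was 1.83 and 8.63 kb in AG and 1.15 and 0.610 kb in GG, a log2 difference of 1.84 (SE 0.51). AG replicate 2 covered the most by far, and without it the window fell below the minimum of 2000 bp and had no value. The 5th, chr19:28000001-29000000, had 32.1 and 48.8 kb against 27.96 and 28.9 kb (log2 0.82, SE 0.24). After centring its groups overlapped. No window of the chromosome was higher in GG after scaling to the library, so none is named in that direction.

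At a finer scale a few stretches went the other way. Of 251 windows of 200 kb with a mean of at least 2000 bp, both AG libraries were above both GG libraries in 172 (68.5%), against a background of 23.8%, and both GG above both AG in 8, against 25.7%. Of those 8, 3 were neighbours, from 15400001 to 16000000. In the last of them, chr19:15800001-16000000, hotspots covered 0.878 and 3.25 kb in AG and 10.6 and 6.97 kb in GG, a log2 difference of -1.44 (SE 0.45). Its neighbour chr19:15600001-15800000 had 3.15 and 2.32 kb against 8.46 and 8.62 kb (log2 -1.03, SE 0.38). The second GG-only region, at 15979418, lies in the former. A further window, chr19:49800001-50000000, had 7.25 and 3.99 kb in AG and 15.7 and 13.4 kb in GG (log2 -0.94, SE 0.44). None of the 8 passed an adjusted p of 0.05, and those named were chosen after their values were seen.

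Of the other autosomes, chromosome 20 came nearest. Its 75 windows had a median scaled log2 difference of 0.53, with 57 higher in both AG libraries and 5 in both GG libraries. Chromosome 10 followed with 0.37 (58 of 93 windows) and chromosome 16, the second densest, with 0.24 (35 of 78 windows). Dense windows elsewhere were not shifted as far. In 281 windows of the other autosomes with a mean cover of at least 60 kb (a comparison added later, with the data in view), the median was 0.10 and 100 were higher in both AG libraries. The 37 such windows of chromosome 19 had a median of 0.55 and 36 of them were higher in both AG libraries. Windows of a chromosome are not independent replicates, so the difference between chromosomes was described and not tested.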

How the data were processed

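DNase-seq of 4 libraries (2 AG, 2 GG) was used as lists of hotspots, 1 per library. The authors deposited a position and a score for each hotspot, at a false discovery rate of 0.01 per the list names. The sources used here give neither the score's scale, nor the hotspot caller, nor the read depth. Submitters' notes on processing list deepTools 3.3.1, SAMtools, Bowtie2 and Trim Galore without saying what each did, and name rheMac8 as the build (per the submitters' processing notes). The other columns of the deposited lists are chromosome, start and end, and a further column that was not used here.

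The chromosome, the lists and the tests were chosen with earlier results of these data known. Hotspots of a list did not overlap. Those of all lists that overlapped or touched were merged; a region counted as present with 1 bp of overlap. The end of the last hotspot in any list served as chromosome length. Windows of 1 Mb were compared with limma 3.58.1 (lmFit, eBayes, no trend) in R 4.3.3, with Benjamini-Hochberg adjustment over 2682 windows and an offset of 1000 bp. Both steps were tested on simulated data. Python 3.11.15, numpy 2.4.6, pandas 2.3.3 and matplotlib 3.10.9 were used.

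Named were the 5 regions of all 4 libraries, of AG-only and of GG-only kind with the highest lowest score percentile, the 3 widest, the 5 densest windows, and the 5 windows per direction with the smallest p. Planned gene lists, promoters and markers were left out, since no annotation of the build was used here. Alternatives are given at the end.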

Additional observations from a re-analysis of the deposited data

How the results depend on the processing

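The difference in share of covered bp (1.68 percentage points, AG minus GG) became 1.99 with the higher-scoring 50% of each list, 1.27 with lists of equal covered length and 1.10 by number of hotspots. Hotspots per Mb over the other autosomes rose from 2.03 to 2.65 with the higher-scoring 50%. With these, the Jaccard index was 0.310 for the AG pair, 0.411 for the GG pair and 0.302 for mixed pairs, and AG-only regions fell to 204. Equal covered length gave 0.411 for the GG pair and 158 GG-only regions. With 50% of a hotspot to be covered, 49.3% (AG) and 59.9% (GG) were found again. The densest 5 Mb held 18.4% of the cover in windows of 200 kb. Leaving out a library gave 395 to 1878 AG-only and 485 to 1378 GG-only regions. For these changed lists, group-only regions were counted on chromosome 19 alone, without a share over the genome beside them.

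For windows, the median log2 difference of 0.56 became 0.39 with equal covered length and 0.47 with an offset of 10000 bp. By number of hotspots it became 0.38. With median scaling it became 0.69 and unscaled 0.21, while the median over all windows moved alike, from -0.04 to 0.08 and -0.40. The chromosome's median reversed to -0.034 after centring within chromosomes, which removes the chromosome's own mean. The share of windows with both AG above both GG was 94.4% when scaled, against 24.1% of all windows. It was 16.7% with centring, against 28.3%, and 38.9% unscaled, against 6.64%. It was 67.9% with lists of equal covered length, where the share over all windows was not taken. By number of hotspots it was 79.6%, against 23.1% of all windows. Limma called 4 windows with the larger offset and 26 with a variance trend. With the replicate block it called 0, as without. Deviations of same-numbered libraries had an r of -0.08 over all windows and -0.45 over the 54 of chromosome 19, so the numbers are not shown to pair them. The other causes were not tested, and unknown read depth limits all counts of calls.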

Other observations

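Over the 20 autosomes, the AG to GG ratio of the share of covered bp went with the mean density of hotspots, with a Pearson r of 0.724 and a Spearman rho of 0.567. Without chromosome 19 these were 0.562 and 0.495 over 19 autosomes. The points share the same 4 libraries, and a higher share of 1 autosome lowers those of others, so this is a description with no test. Chromosome 18 was the sparsest autosome, with 23.6 hotspots per Mb in the mean of the libraries and a ratio of 1.01. Chromosome 19 had 59.97 per Mb and a ratio of 1.46, while chromosome 20, with 32.9 per Mb, had 1.43.

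Among windows of 200 kb on chromosome 19, named after their values were seen, limma ranked first chr19:22400001-22600000, where hotspots covered 7.07 and 6.56 kb in AG and 1.81 and 0.719 kb in GG (log2 2.15, SE 0.39). The largest difference was at chr19:21800001-22000000 (log2 2.47, SE 0.51), where AG covered 10.04 and 21.2 kb and neither GG library more than 3.996 kb. The first 200 kb of the chromosome had 5.56 and 5.00 kb against 0.970 and 1.52 kb (log2 1.82, SE 0.38).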
